A study of Mus musculus with 116 samples.

Results

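The cells described are the SVEC single cells of a study of mouse C10 and SVEC cultures: every library titled with a number and SVEC that held at least 1000 gene counts. All 48 SVEC single-cell libraries met that rule, out of 116 libraries in the series. SVEC is labelled as a mouse endothelial cell line, the kind of cell that lines blood vessels, and lines of this name were made by immortalising endothelial cells with a viral oncogene. Each library comes from 1 cell by nanoSPLITS. The lysate of a cell sits in a nanodroplet that is split so that RNA and protein can be read from the same cell. A library thus holds RNA from a part of the lysate. Only the RNA counts were analysed. The cells were grown by standard culture, received no treatment and carry no labelled allele. C10 single cells, a second mouse line grown and processed in the same way, appear below only where a comparison is stated. The labels name no separate cultures, so the 48 cells count as 1 sample of the line: values are given with their spread over cells, and no p-value is printed.

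As background, an immortalised line in culture keeps dividing without being synchronised, so its cells are caught at all points of the cell cycle. Genes for mitosis are made in a burst in late S and G2 phase and their transcripts are removed after division. Genes for ribosomes, respiration and glycolysis are read in every cycling cell. MHC class I molecules carry peptides to the cell surface, and the immunoproteasome cuts proteins into peptides that fit them; interferon raises both.

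The libraries held 5122 to 2831907 gene counts, with a median of 434945. Genes with at least 1 count numbered 786 to 7844 per cell, with a median of 4404. When the 42 cells with at least 100000 counts were drawn down to 100000 each, 1231 to 6621 genes remained, with a median of 3849. Cells thus still differed widely at equal depth. The remaining 6 cells, replicates 8, 9, 12, 20, 24 and 48, held fewer counts and were left out of the ranking by spread and of the values given over 42 cells. The mitochondrial share of counts ran from 1.08 to 27.5%, with a median of 4.30%, and its highest values, in replicates 24 and 48, belong to those shallow cells. The kit adds no molecular identifiers, so PCR copies count as reads and limits from counts cover counting error only.

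**Figure D1:**
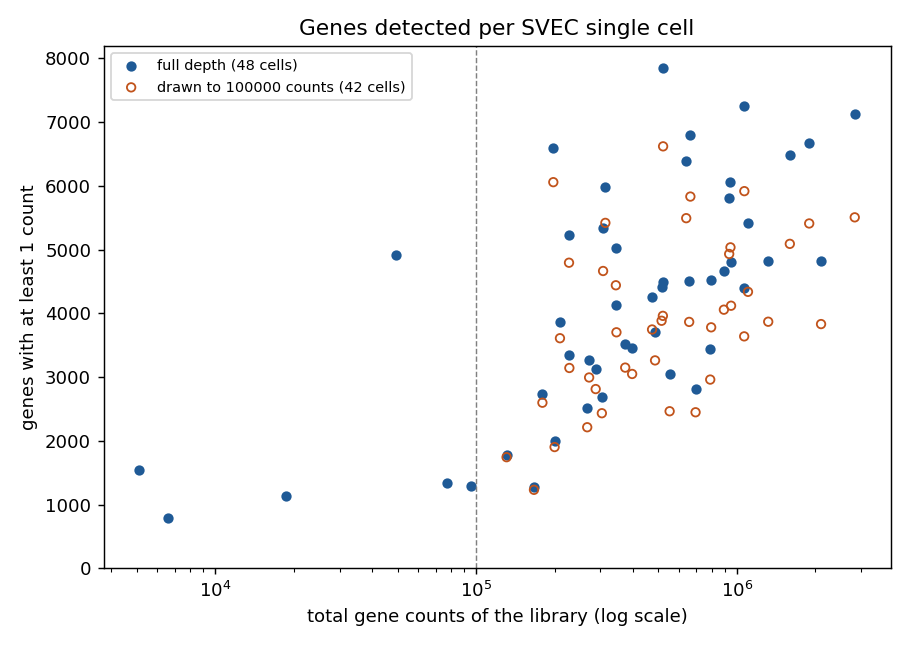
Genes with at least 1 count against the total gene counts of each library (log scale); filled points are the 48 cells at full depth, open points the 42 cells with at least 100000 counts (right of the dashed line) drawn down to 100000. At equal depth the open points still spread from 1231 to 6621 genes.

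The endothelial label was checked against marker genes. Of 23 endothelial markers, among them Pecam1, Cdh5 and Kdr, 12 had no count in any of the 48 cells, and none was detected in at least 50% of them. The most often detected was Plvap, a protein of endothelial pores, with a count in 17 of 48 cells and a highest level of 22.6 counts per 1000000 gene counts (CPM). The summed share of the 23 genes had a median of 0.000492% and a highest value of 0.0238%, and it was 0 in 20 cells. Over all 48 cells, 3 counts correspond to 0.103 CPM. Of 20 epithelial markers 16 had no count in any cell, and of 17 leukocyte markers 11 had none. Of 17 fibroblast and mural markers 4 had no count in any cell, 4 were detected in at least 50% of the cells, and their summed share had a median of 0.226% and a highest value of 1.19%. Col1a1, a chain of fibrillar collagen, was detected in 47 cells, Acta2, smooth muscle actin, in 33, Dcn, the matrix proteoglycan decorin, in 31, and Col3a1 in 27. The counts of these markers go against the endothelial label, so the cells are called SVEC single cells here, with no other cell type name. The same fibroblast and mural list had a median share of 0.409% in the C10 single cells. There the endothelial list had a median share of 0.000325%, and Plvap had a count in 34 of 46 cells, so Plvap is not particular to SVEC.

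Of the 3 genes given as marks of the line, both class I genes were present in nearly every cell and Psmb8 in most. H2-K1, an MHC class I heavy chain, had a count in 47 of 48 cells, with a median of 1699 CPM and a highest value of 5800. H2-D1, a second heavy chain, was found in all 48 cells at 41.7 to 2631 CPM, with a median of 847. Psmb8, a catalytic subunit of the immunoproteasome, was found in 39 cells, with a median of 172 and a highest value of 928 CPM. In 46 C10 single cells with at least 1000 counts the median of H2-K1 was 33.6 CPM, that of H2-D1 was 1.94, and Psmb8 had no count; these genes were chosen for that difference, which is given as a description. Of 2 other immunoproteasome subunits, Psmb9 was higher in SVEC and Psmb10 lower. Psmb9 had a count in 36 of 48 SVEC cells with a mean of 215 CPM. In C10 it had a count in 7 of 46 cells with a mean of 6.65 CPM. Psmb10 had a count in 22 of 48 SVEC cells with a mean of 27.0 CPM. In C10 it had a count in 38 of 46 cells with a mean of 62.5 CPM. B2m, the light chain that class I heavy chains need, is listed at 0 in every SVEC and C10 cell. What gives this 0 was not tested. A listed 0 does not show that a transcript is missing, which also limits the marker genes listed at 0 above.

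To see what the cells made most of, nuclear genes detected in at least 90% of the cells were ranked by their mean level per length, which is counts per kilobase of exon scaled to a total of 1000000. The leading gene was Ftl1, the light chain of the iron store ferritin, at 11532 ± 5719 (SD, n = 48 cells) on that scale. Ubb, a polyubiquitin gene, followed at 6666 ± 2388. Mif, a secreted cytokine-like protein, stood at 5946 ± 4886. Lgals1, the sugar-binding galectin-1, stood at 5698 ± 1836. Ifitm3, a membrane protein induced by interferon, stood at 5418 ± 4575. Neighbours from Ubb down to Ifitm3 lie within 1 SD of each other and have no firm order. The other members of the leading 10 were the lysosomal membrane protein Cd63 (5239), the protease inhibitor Cstb (4518), the proline isomerase Ppia (4465), the calcium-binding S100a11 (4216) and the calmodulin gene Calm2 (4161). Ftl1 exons overlap those of other annotated genes, and ferritin and ubiquitin genes have close copies, so their levels are uncertain.

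Some of these had a narrower range over cells than others. Over the 42 deeper cells, Ppia ran from 2203 to 9515 CPM with a median of 4698, and Lgals1 from 1121 to 4423 with a median of 2522. Ifitm3 ranged more widely, at 233 to 6871 CPM with a median of 1411. The leading gene, Ftl1, ran from 1159 to 19049 CPM with a median of 5494. In the ranking by spread described below, Ftl1 is among the most variable genes, with a residual of 0.694. Ranked without length, only 4 of the 10 genes stayed among the leading 10, and Malat1, a long nuclear RNA, led with a mean of 12511 CPM. Among mitochondrially encoded transcripts, cytochrome b (CYTB) was found in all 48 cells with a median of 7896 CPM, COX1 of respiratory complex IV with a median of 6247, and the ribosomal RNA mt-Rnr2 with a median of 4924.

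Counts were spread over many genes. Of 15082 genes with a count in any cell, 613 held 50% of the mean CPM. Only 64, or 0.424%, were detected in all 48 cells, 10 of them mitochondrial, and 2441 were detected in 1 cell only. Among the 42 deeper cells, 276 genes were detected in every one. Genes of every-cell detection included glycolytic enzymes: Tpi1, Gapdh, Eno1, Pkm and Ldha had counts in all 48 cells, and 12 of 82 cytosolic ribosomal protein genes did too.

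Spread from cell to cell was measured as the standard deviation (SD) of log2(CPM + 1) over the 42 deeper cells, for the 3525 genes detected in at least 50% of them. The SD depends on the level, so each gene was set against a smooth trend through all genes, and its distance from the trend is its residual. The 352 genes with the highest residuals, 9.99% of those ranked, are called most variable, and the 352 with the lowest, also 9.99%, most constant. These are ranks, not tests. No second library of a cell and no spike-in is labelled. Spread between cells thus cannot be told apart from spread that comes from splitting the lysate or from capturing few molecules. At the very highest level the trend falls to -0.04, so a residual there is positive whatever the SD. Of 22 genes with a mean log2(CPM + 1) of at least 11, whose SDs were 0.47 to 1.91, 7 are called most variable.

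**Figure D2:**
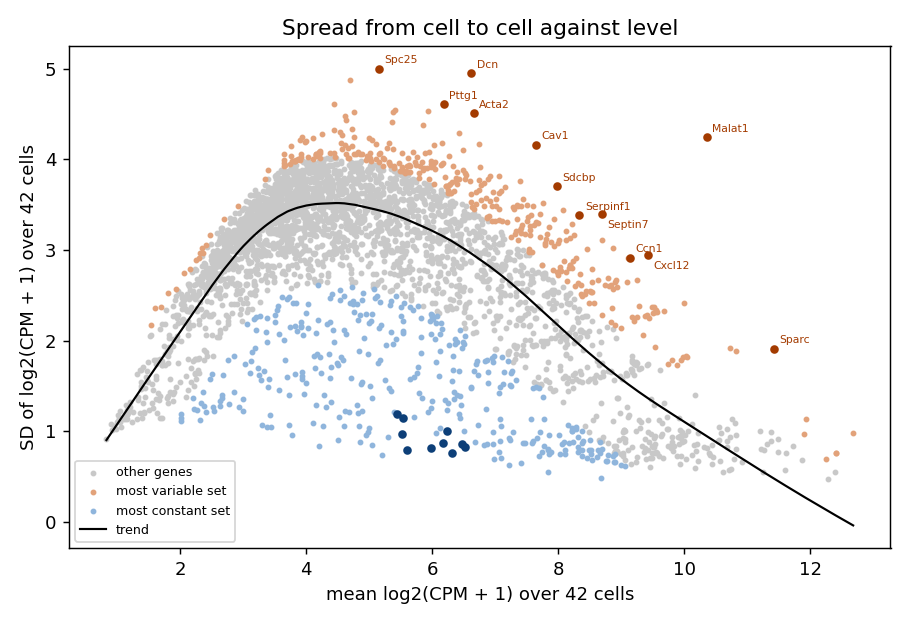
SD of log2(CPM + 1) against its mean over 42 cells for 3525 genes, with the trend (line), the most variable set (orange) and the most constant set (light blue); the 12 most variable genes named in the text are labelled and the 10 most constant are dark blue. Malat1 stands 3.30 above the trend.

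The 12 most variable genes fell into a nuclear RNA, matrix and contractile genes, cell division genes and a few others. Malat1, which stays in nuclear speckles, ran from 0 to 74203 CPM with a median of 1514 over the 42 deeper cells, and its residual was 3.30. Of these 42 cells, 13 had at least 10000 CPM of it, 20 had under 1000 and 3 had none; replicate 6 was highest. Many cells thus lay toward each end of its range. Whether the split of the lysate adds to this spread was not tested. Its level also went with the number of genes detected (rho 0.55, r 0.65 over 42 cells).

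Dcn ran from 0 to 9846 CPM with a median of 629 and was detected in 28 of the 42 cells. Its highest value was in replicate 44, the cell with the fewest genes detected at equal depth, 1231. Acta2 ran from 0 to 3753 CPM with a median of 279 and was detected in 30. Dcn and Acta2 were thus each at 0 in some deep cells and among the stronger transcripts in others. Sparc, a matrix glycoprotein, was high in nearly all cells, at a median of 3399 CPM, and its place among the most variable genes rests on replicate 34, the 1 cell at 0. The other 41 cells ran from 1435 to 9583 CPM, and without replicate 34 the SD fell from 1.91 to 0.64, the residual from 1.43 to 0.28 and Sparc was not among the most variable. The other 11 named variable genes kept their place with any 1 of the 42 cells left out. Ccn1, a matrix-associated growth regulator, had a median of 963 and a highest value of 5191 CPM. Serpinf1, a secreted serpin, had a median of 662 and a highest value of 3899 CPM. Cav1, the coat protein of caveolae, had a median of 578 and a highest value of 2398 CPM, and was detected in 33 of 42 cells. Dcn and Serpinf1 moved together over the 42 cells (Spearman rho 0.62, Pearson r 0.40), a description over 42 libraries that differ in depth, of genes picked for their spread.

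Cxcl12, a chemokine that draws CXCR4-bearing cells, ran from 0 to 5574 CPM with a median of 1100. Spc25, a subunit of the kinetochore's Ndc80 complex, ran from 0 to 3933 CPM with a median of 67.2 and was detected in 23 cells. Pttg1, securin, which inhibits separase, ran from 0 to 3506 with a median of 270.0. The cytoskeletal Septin7 (median 1036 CPM) and the syndecan-binding Sdcbp (median 806 CPM) complete the 12. With the squared coefficient of variation in place of the SD, Cav1, Septin7, Sdcbp and Sparc left the most variable set. Only 109 of the 352 most variable genes were most variable by that measure.

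**Figure D3:**
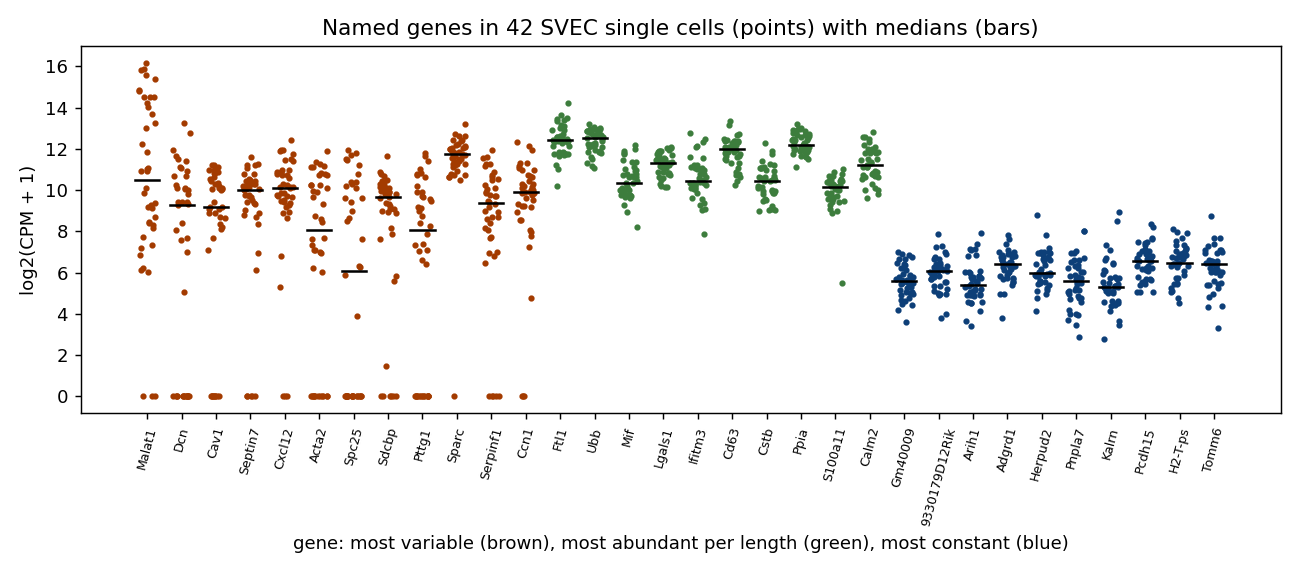
Level of each named gene, log2(CPM + 1), in 42 SVEC single cells (points) with the median (bar): the 12 most variable genes (brown), the 10 most abundant per length (green) and the 10 most constant (blue). Most variable genes have cells at 0 beside cells above 10 on this scale, while the constant genes sit between about 3 and 9 in every cell.

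The 10 most constant genes were of a different kind: low, and present in every deep cell. By rule they were detected in all 42 deeper cells with a mean of at least 50 CPM. They were Gm40009, 9330179D12Rik, Arih1, Adgrd1, Herpud2, Pnpla7, Kalrn, Pcdh15, H2-T-ps and Tomm6, with residuals from -2.54 to -2.13. They are constant against the trend at their level, not in absolute terms. Their SDs ran from 0.76 in Adgrd1 to 1.19 in Kalrn, while the abundant Ppia and Lgals1 had smaller SDs of 0.47 and 0.55. Pcdh15, a protocadherin known from hair cells of the inner ear, ran from 31.9 to 327 CPM with a median of 95.2. Adgrd1, an adhesion G protein-coupled receptor, ran from 12.8 to 227 CPM with a median of 84.7. Arih1, a ubiquitin ligase, ran from 9.77 to 243 CPM with a median of 41.4. Kalrn, a guanine exchange factor known from neurons, ran from 6.00 to 497 CPM with a median of 38.7, and it left the most constant set with the squared coefficient of variation. Of these 10, 9 were also detected in all 45 C10 single cells with at least 100000 counts, where Pcdh15 had a median of 94.1 CPM and Kalrn 38.2. The exception was H2-T-ps, a class I gene named as a pseudogene but listed as protein-coding in RefSeq. It had a median of 87.6 CPM in SVEC and 1.83 in C10. The exons of 9330179D12Rik, H2-T-ps and Tomm6 overlap other genes in the annotation, so reads there may belong to a neighbour. Whether the low, even counts of the other genes come from their spliced transcripts was not tested.

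Gene lists were then described by their share of counts in each cell and by how many of their members lay in the most variable or most constant set. The cytosolic ribosomal proteins, which build both ribosomal subunits, were the largest list by median share over the 42 cells, at 3.92% with a range of 1.80 to 5.49%. Of their 80 ranked members 2 were most variable and 28 most constant, against 9.99% of all genes in each set. Rplp0, of the ribosomal stalk, ran from 334 to 4659 CPM with a median of 1333. Rpl35a, Rpl29 and Rpl26 were the most constant, with residuals of -1.90, -1.89 and -1.79, while Rpl7 was among the most variable at 1.37. Ribosomal protein genes have many processed copies, and the files list no reads as mapped to several places, so levels of single members are uncertain.

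Nuclear-encoded genes of oxidative phosphorylation were similar in kind, with a median share of 3.57% and a range of 1.75 to 5.46%. Of 76 ranked members 6 were most variable and 18 most constant. The variable ones were Atp5b, Atp5c1, Atp5a1, Atp5o and Atp5pb of ATP synthase, and Sdhd of complex II. Against 9.99% of all genes, 6 of 76 is no excess. Atp5b, the catalytic beta subunit, was at 0 in replicate 44 and ran from 442 to 4973 CPM in the other 41 cells, with a median of 2344 over all 42; without replicate 44 its residual fell from 1.14 to 0.22 and it was not among the most variable. Atp5pb left that set without replicate 41. The constant ones included the small subunits Atp5e, Atp5k, Cox5b and Uqcrh. With the squared coefficient of variation none of this list was most variable, and neither was any ribosomal protein, of which 45 were then most constant. With exon length taken into the trend, the constant members fell to 10 in this list and to 20 among the ribosomal proteins. The shares of both lists moved together over the 42 cells (rho 0.78, r 0.80), and that of the mitochondrially encoded proteins went with this one (rho 0.71, r 0.66). Shares of 1 total are tied to each other, and these values are descriptions.

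Glycolysis held a median share of 1.80%, from 0.425% in replicate 16 to 4.62% in replicate 42. None of its 14 ranked members was in either set. Ldha, which makes lactate from pyruvate, ran from 322 to 10992 CPM with a median of 2483. Tpi1, triosephosphate isomerase, ran from 844 to 9349 with a median of 3165. The highest values of Ldha and Tpi1 were both in replicate 44, the cell with the fewest genes detected at equal depth, 1231. The list's share varied although no single member stood out, and its members had a mean pairwise rho of 0.31, against 0.03 over all ranked genes. The summed share of 18 genes in common use as references varied least of all 27 lists. Its coefficient of variation was 0.182 and its range 1.65 to 3.87%. Of its 16 ranked members 1 was most variable, Hprt, and 1 most constant, Rpl13a, against 9.99% of all genes in each set. Hprt ran from 0 to 1385 CPM and left its set in 14 of 42 rankings that left out 1 cell. B2m, listed at 0 in every cell, also belongs to this list. Lists differ in the number and level of their members, so this order does not compare single genes.

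**Figure D4:**
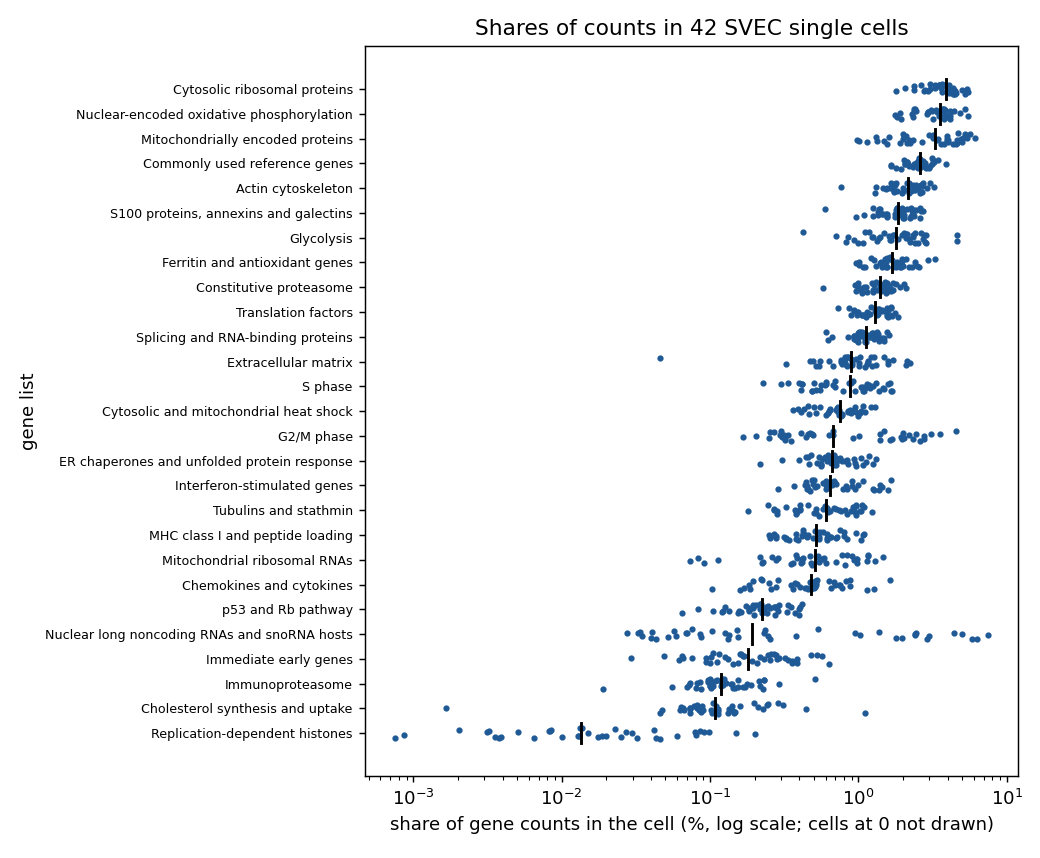
Share of gene counts held by each of 27 gene lists in 42 SVEC single cells (points, log scale) with the median (bar). The G2/M list runs from 0.167 to 4.58%, while the reference genes stay between 1.65 and 3.87%.

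In the G2/M list, genes made before and during mitosis, 18 of the 25 ranked members were most variable and none was most constant, against 9.99% of all genes in each set. With 1 cell left out the variable members were 14 (without replicate 5) to 20. With the squared coefficient of variation 15 of the 25 were most variable. These are the members that passed the detection filter, out of 54 in the files; under a looser filter of 25% of cells, 32 members were most variable. The list's share ran from 0.167 to 4.58% over the 42 cells, with a median of 0.677% and a coefficient of variation of 0.884. Of the cells, 19 held at least 1%, 11 of them at least 2%, and 19 held under 0.5%. The highest were replicate 5 at 4.58%, replicate 40 at 3.57% and replicate 3 at 3.10%. In between, 4 cells held between 0.5 and 1% and 8 held between 1 and 2%. These intervals differ in width, so the counts show no gap between groups of cells.

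Cdk1, the kinase that drives entry into mitosis, ran from 0 to 2497 CPM with a median of 587. Its cyclin Ccnb1 ran from 0 to 4619 with a median of 149, and Ccnb2 from 0 to 1874 with a median of 46.2. Ube2c, which feeds ubiquitin to the anaphase-promoting complex, ran from 0 to 3284 with a median of 34.3. The chromosomal passenger Birc5 ran from 0 to 1766 with a median of 162, and the DNA untangling enzyme Top2a from 0 to 1429 with a median of 26.8. Of these 6 genes, all were detected together in 12 cells and none in 2. Those 2 cells, replicates 32 and 44, had only 1743 and 1231 genes detected at equal depth, against a median of 3849. Low detection and low expression cannot be told apart there. Over the 25 ranked members, a cell held counts for 3 to 25, with a median of 16. The members' mean pairwise rho was 0.37. Hmgb2, a chromatin protein, was present in all 42 cells, at 5.79 to 5313 CPM. The list's share went with that of tubulins and stathmin (rho 0.61, r 0.59), which share Tubb4b with it, and against the level of Cav1 (rho -0.58, r -0.54).

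**Figure D5:**
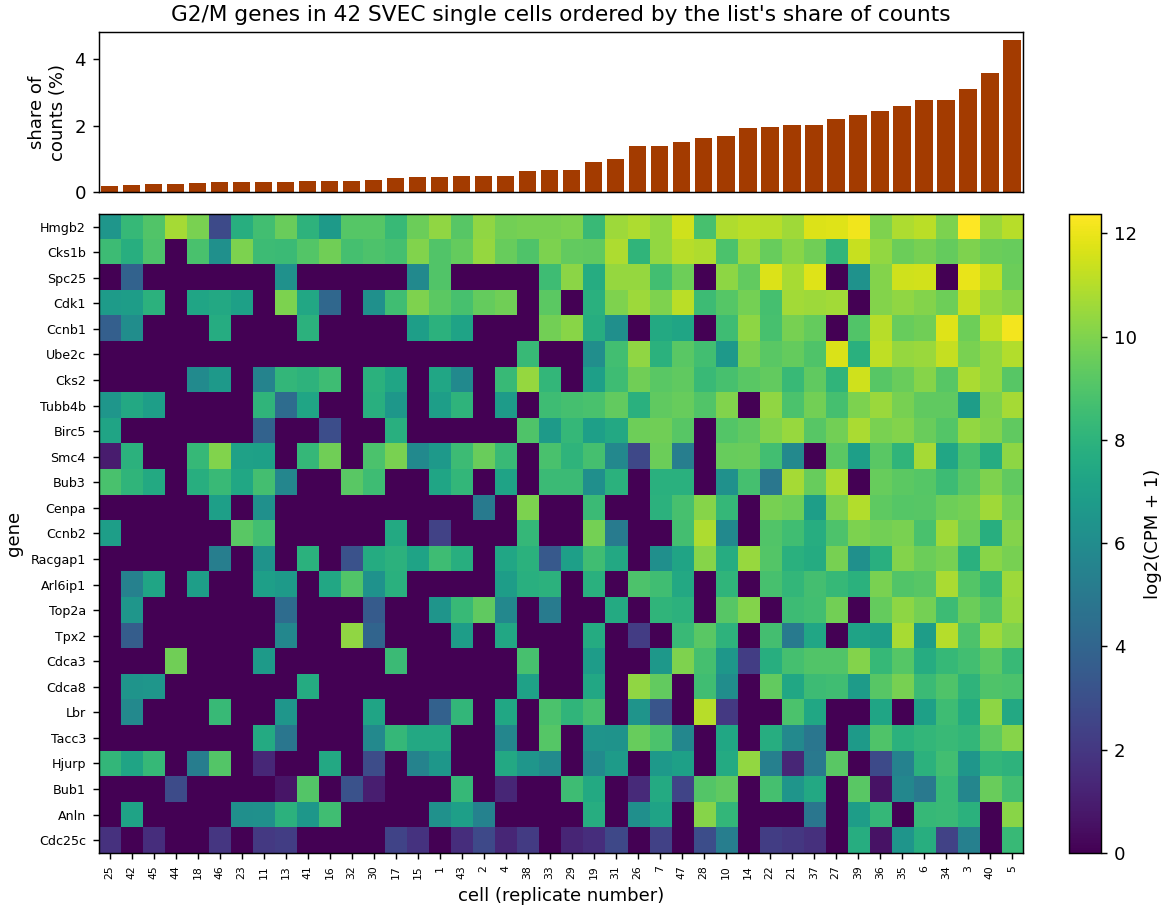
Levels of the 25 ranked G2/M genes, log2(CPM + 1), in 42 SVEC single cells ordered by the list's share of counts, which is shown as bars above (percent). From left to right the share goes from 0.167 to 4.58%. The cells are ordered by the share of the list that holds these genes, so higher levels toward the right follow in part from that order.

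S phase genes, which copy DNA, were spread less. Of 28 ranked members 9 were most variable and none most constant, against 9.99% of all genes in each set. Among the variable ones were Pcna, Prim1, Slbp, Chaf1b, Mcm4, Tyms, Rrm2 and Rrm1. With the squared coefficient of variation 4 of the 28 were most variable, which is closer to that share. Slbp left the set without replicate 27 or 40, and Rrm1 in 5 of 42 rankings that left out 1 cell. Pcna, the sliding clamp, ran from 0 to 2231 CPM with a median of 450.0. The share ran from 0.228 to 1.67% with a median of 0.870%, and the mean pairwise rho was 0.19. Of 57 replication-dependent histone genes, whose transcripts mostly lack a poly(A) tail, only 2 were ranked.

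Promoters of the G2/M and interferon genes are shown because members of these lists rise in the same cells or share a known input. Sequences are from RefSeq, assembly GRCm38.p6, and windows of 250 bases before to 50 after the start were searched on both strands for letters picked after the lists were known. TTTGAA, the letters of the cell cycle homology region of mitotic promoters, was in 35 of 46 G2/M promoters, or 76.1%, against 20.2% of all 27025 genes with a promoter. It was in 5 of 31 S phase promoters. CCAAT was in 38 of the 46, against 41.1% of all, but also in 15 of 17 MHC class I promoters and 19 of 31 S phase promoters. GGCGGGAA, an E2F-type motif, was in 8 of 31 S phase promoters, in none of the 46 G2/M promoters and in 2.52% of all. The 200 bases before the start are printed below for Ube2c, Cdk1 and Ccnb1, with TTTGAA on either strand in capitals. Ube2c lies at chr2:164769729-164769928 on the plus strand, Cdk1 at chr10:69352913-69353112 on the minus strand and Ccnb1 at chr13:100786487-100786686 on the minus strand.
Ube2c: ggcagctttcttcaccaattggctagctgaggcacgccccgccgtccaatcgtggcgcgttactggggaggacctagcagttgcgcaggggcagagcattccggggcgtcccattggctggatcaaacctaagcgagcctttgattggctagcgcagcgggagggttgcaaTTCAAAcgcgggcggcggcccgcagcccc
Cdk1: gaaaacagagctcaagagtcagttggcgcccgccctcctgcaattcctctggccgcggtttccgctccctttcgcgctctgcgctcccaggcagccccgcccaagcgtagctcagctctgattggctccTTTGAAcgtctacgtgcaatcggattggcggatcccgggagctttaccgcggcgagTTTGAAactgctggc
Ccnb1: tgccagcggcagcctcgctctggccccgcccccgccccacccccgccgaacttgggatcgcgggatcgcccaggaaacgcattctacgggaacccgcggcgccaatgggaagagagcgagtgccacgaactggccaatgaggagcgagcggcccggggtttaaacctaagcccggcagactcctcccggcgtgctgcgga
The match in Ube2c begins 29 bases before the start, and those in Cdk1 begin 71 and 15 bases before it. Ccnb1 has no TTTGAA in these 200 bases and was also among the most variable genes. A match is a string of letters and was not tested as a site.

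Of the MHC class I and peptide loading genes, 12 were ranked. None was most variable and 4 were most constant, against 9.99% of all genes in each set. These 4 were H2-Q4, H2-Q2, H2-Q1 and H2-Q10, the last of which was at 0 in 6 of the 42 cells. The share ran from 0.249 to 1.09% over the 42 cells, with a median of 0.515% and a coefficient of variation of 0.424. That was above the 0.235 of the cytosolic ribosomal proteins and near the 0.458 of the interferon-stimulated genes. H2-K1 ran from 288 to 5213 CPM with a median of 1845, and H2-D1 from 48.9 to 2100 with a median of 867. The mean pairwise rho was 0.32, so members were high in the same cells. Class I genes are near copies of each other, and reads may be split between them. Of the 5 immunoproteasome genes, Psme2 of the activator cap was most variable, at 0 to 1753 CPM with a median of 543, but not without replicate 27, 32 or 44.

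Interferon-stimulated genes were read in all cells with no interferon given: 33 of 34 had a count in some cell, and the share ran from 0.288 to 1.67% with a median of 0.645%. Of 22 ranked members, against 9.99% of all genes in each set, Ifit3, Irgm1 and Oasl2 were most variable and none was most constant; with the squared coefficient of variation 5 were most variable and 2 most constant. The count of 3 is near that background, and Oasl2 left the most variable set without replicate 34. Ifit3, which binds foreign RNA complexes with its relatives, ran from 0 to 7268 CPM with a median of 163. Its highest value was in replicate 27, and without that cell the highest was 1645 CPM. Isg15, a ubiquitin-like protein, ran from 0 to 1939 CPM with a median of 232. The mean pairwise rho was 0.11, lower than that of the class I list. The core of the interferon-stimulated response element, searched as TTTC and TTTC with any 2 bases between them, was in 17 of 29 promoters of this list, against 3.99% of all. In Ifit3, at chr19:34583329-34583528 on the plus strand, it begins 156 and 122 bases before the start, and is in capitals below.
Ifit3: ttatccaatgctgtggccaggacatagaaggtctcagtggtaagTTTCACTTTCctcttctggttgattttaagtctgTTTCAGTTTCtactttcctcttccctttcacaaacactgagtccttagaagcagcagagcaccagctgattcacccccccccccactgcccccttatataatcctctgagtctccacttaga

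Among secreted signals, 3 of 4 ranked chemokine and cytokine genes were most variable, against 9.99% of all genes: Cxcl12, Ccl7 and Ccl2. Ccl2, which draws monocytes, ran from 0 to 7582 CPM with a median of 265, and Ccl7 from 0 to 6166 with a median of 157. Of 27 genes in that list 17 had no count in any cell. Extracellular matrix genes had 16 ranked members, of which 7 were most variable (Dcn, Sparc, Ccn1, Fn1, Col3a1, Lox and Bgn) and 2 most constant (Serpinh1 and Col1a1). The background is again 9.99% of all genes in each set. Bgn left its set in 19 and Col1a1 in 26 of the 42 rankings that left out 1 cell, so both lie at the edge; without replicate 34 the variable members were 5. Fn1, fibronectin, ran from 0 to 4521 CPM with a median of 473. Replicate 34 held the lowest matrix share, 0.0459%, against a median of 0.896%; it also held the lowest chemokine, S100 and actin shares and a G2/M share of 2.78%.

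Of the actin cytoskeleton list, 7 of 37 ranked members were most variable, led by Acta2, Actg1 and Tpm4, and none was most constant. Actb ran from 641 to 4129 CPM with a median of 1683, while Actg1, its close relative, ran from 0 to 4638 with a median of 1497. Of 31 constitutive proteasome genes 10 were most variable, led by Psmc2, Psma2 and Psmc6, and Psmb4 was most constant. Of 33 translation factors 8 were most variable and none most constant. Of 28 splicing genes 6 were most variable, and Hnrnpl was most constant. All 4 counts stand beside 9.99% of all genes in each set, and they rest on the measure. With the squared coefficient of variation the most variable members were 1 in the actin list and 0 in the proteasome list. They were 1 among the translation factors and 2 among the splicing genes. Among 7 ranked immediate early genes Fos was most variable, at 0 to 3182 CPM with a median of 500.

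The axes along which whole cells differed were read from principal components of the 3525 genes at equal depth. The first held 11.9% of the variance and followed the number of genes detected (rho 0.96 over 42 cells); it also went with the total counts before drawing down (rho 0.59) and against the mitochondrial share (rho -0.52). The second held 4.61% and went with the G2/M share (rho 0.57), with Spc25, Birc5 and Ube2c at one end and Ext1, Malat1 and Plec at the other. The part of cell size, cell quality and RNA capture in the first axis was not tested.

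How alike the cells were was set beside C10 single cells at equal depth. Over 7247 genes, a pair of SVEC cells had a mean Pearson r of log2(CPM + 1) of 0.388 (42 cells), and a pair of C10 cells 0.456 (45 cells), a difference of -0.0682. The mean r of each SVEC cell with the other SVEC cells ran from 0.322 in replicate 44 to 0.428 in replicate 17, with a median of 0.393. Each line is 1 sample, so this difference has no test. Sequencing batch is not labelled, so line and batch cannot be told apart in this difference.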

How the data were processed

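RNA of 48 SVEC single cells was read by full-length cDNA sequencing (SMART-Seq v4 Plus, single reads of 150 bases, per the labels' protocols). The deposited files hold whole-number read counts per gene symbol, made with FastQC, STAR and HTSeq per the submitters' processing notes. Versions, genome build, annotation and strand setting are not given in the sources used here, so overlapping and antisense genes are uncertain. The 5 closing counters were left out of totals; 15.0 to 87.7% of reads per library were not aligned (median 36.1%), and none is listed as mapping to several places.

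The members, gene lists and rules were chosen with earlier results of these data known. Counts were scaled to a library total of 1000000 (CPM). Lengths are merged exons of GENCODE M21, and 3479 of the 3525 ranked genes had one. Named genes were the 10 highest per length (detected in at least 90% of cells), the 10 most constant (mean of at least 50 CPM), the 12 most variable (mean of at least 20 CPM), 3 mitochondrial genes, markers detected in at least 25% of cells, and for each list the highest member and the one of largest residual; other list members were named after their values were seen. Some list members are not reported here. The trend was a lowess of span 0.3 (statsmodels 0.14.6, Python 3.11.15). Other scalings used edgeR 4.0.16 and DESeq2 1.42.0 in R 4.3.3.

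A permutation test of library labels had been planned for the resemblance of SVEC and C10 cells. Its p-value is not printed, because the labels name no separate cultures and reassigning cells is no test of the line. The closest pair of libraries, replicates 6 and 9, differed by a chi-square of 3.23 per degree of freedom over 4340 genes, above sampling noise, so all were kept apart.

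The ranking was tested on simulated counts for the 3525 genes of the 42 deeper cells, with 200 genes made more variable and 200 more constant. A first requirement that over 80% of each set be recovered was missed for the variable set, at 78%. Of those 200 genes, 43 fell under the detection filter and were never ranked. The requirement was then restated for ranked genes: 156 of 157 variable and 194 of 200 constant ones were placed in the right set. In this simulation, the variable genes that were missed fell mostly to the filter. All unchanged genes were simulated with the same spread and with no added loss at capture. Recovery in the real counts was thus not measured.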

Additional observations from a re-analysis of the deposited data

How the results depend on the processing

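Calls of most variable and most constant genes are ranks within 1 line; depth and capture limit them, and genes detected in under 50% of the deeper cells were not ranked. The number of genes detected in every cell, 64, was 276 in cells with at least 100000 counts and 42 with at least 3 counts required. Of the 10 most abundant genes, 4 stayed when length was left out and 9 with medians. With the squared coefficient of variation, 109 of the 352 most variable and 232 of the 352 most constant genes stayed. Under the other 8 settings, including a trend on exon length chosen after the data were seen, 247 to 340 variable and 265 to 352 constant genes stayed. With each of the 42 cells left out in turn, an alternative also chosen after the data were seen, 309 to 334 variable and 327 to 340 constant genes stayed. Of 197 residuals of named genes under the settings other than leaving out a cell, 5 left their set, all with the squared coefficient of variation: Cav1, Septin7, Sdcbp, Sparc and Kalrn; with a cell left out, Sparc did so without replicate 34. Counts of list members moved by over 1.5 times in 58 of 225 values for the variable set and 69 of 225 for the constant set; the cause was not tested. All 52 median shares stayed within 1 SD.

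The difference in mean r between SVEC and C10 cells, -0.0682, was -0.0990 with a pseudocount of 10 and -0.208 over genes detected in at least 90% of both lines; it was -0.0853 at full depth and -0.0854 with Spearman rho. SVEC was lower in each. Titles share the numbers 1 to 48 between lines. With the replicate block the difference is -0.0682 by construction. Over 40 shared numbers the correlation of deviations ran from -0.0477 to 0.0494, and none was over 0.1. None of the cells correlated best with its own number. These values showed no pairing by number, but what a weak shared effect would give was not tested.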
